A study of Cicer arietinum with 32 samples.

Results

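Seed coat, embryo and endosperm are 3 of the 32 tissues/organs of a chickpea (Cicer arietinum) expression atlas, and the seed coat was compared here with the other parts of the seed. All 3 came from genotype ICC4958, with no treatment or transgene in any of them. The sources differ on their age: the methods place the dissection of seed parts at 10 days after pollination (dap), a supplementary sheet gives late embryogenesis, and the labels give a mature plant. RNA-seq of total RNA was summarised as FPKM (fragments scaled to transcript length and to the number of mapped fragments), 1 value per transcript and tissue, which is the authors' mean over biological replicates. The spread between replicates is not in these values, so no difference below has a replicate check or a p-value, and the number of reads behind a transcript's value is unknown. The FPKM of all transcripts summed to 802743 in seed coat, 816970 in embryo and 959753 in endosperm.

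Of 38818 transcripts, 25639 reached 0.5 FPKM in at least 1 of the 3 tissues (21544 in seed coat, 20056 in embryo and 22328 in endosperm). A transcript was called coat-higher where its log2(FPKM + 1) in seed coat was at least 1 above the higher of embryo and endosperm, which is a fold of 2 on that scale. It was called coat-lower where seed coat was at least 1 below the lower of those values. Differences below are on this scale, which understates the fold of transcripts with low FPKM. Fewer cells of a type and less RNA per cell cannot be told apart in whole tissues.

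The seed coat is maternal tissue that grows from the integuments of the ovule, whereas embryo and endosperm are the products of double fertilisation. Sugars and amino acids from the mother plant are unloaded from the phloem of the seed coat and cross an apoplast to reach the embryo, so that transporters of the coat matter for seed filling. Seed coats are also known for flavonoids and proanthocyanidins, for thickened and lignified walls, and, in young legume seeds, for transient starch and chloroplasts. Dividing cells are typical of a young embryo and endosperm.

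Marker transcripts gave a mixed check of the labels. For the seed coat, the flavonoid glucosyltransferase UGT78D2 (Ca_TC00209) was at 38.0 FPKM in seed coat, 0.133 in embryo and 0.513 in endosperm. Chalcone synthase, the entry enzyme of flavonoid synthesis, had 4 marker transcripts, and Ca_TC31878 was the most abundant with 327 FPKM in seed coat, 0.363 in embryo and 0.477 in endosperm. Of its other copies, Ca_TC32016 was at 1.15 FPKM in seed coat and listed at 0 in embryo and endosperm, Ca_TC31880 was at 0.817 FPKM in seed coat, and Ca_TC33640 was at 0.02 FPKM. The match of anthocyanidin reductase BAN (Ca_TC00358), which makes the units of proanthocyanidins in the Arabidopsis seed coat, went against the label: it was listed at 0 in seed coat and embryo and at 0.017 FPKM in endosperm, and its highest value was 9.3 FPKM in sepal.

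Embryo markers were near 0. All 11 transcripts matched to seed gene ATS3 or to Embryo-specific protein 3 were below 0.5 FPKM in all 3 tissues except Ca_TC01175, at 1.17 FPKM in endosperm, and each had its highest value in nodule. The meristem regulator STM (Ca_TC00756) was at 1.87 FPKM in embryo, 0.057 in seed coat and 0.213 in endosperm. WOX9 (Ca_TC00426), a homeobox regulator of early Arabidopsis embryos, was at 1.86 FPKM in embryo, 1.26 in seed coat and 0.523 in endosperm. The only marker set for endosperm, the sucrose exporter SWEET15 (Ca_TC00119, annotated as SAG29), was higher in seed coat (330 FPKM) than in endosperm (207 FPKM) and was at 2.31 FPKM in embryo. In Arabidopsis SWEET15 acts in both seed coat and endosperm, so the marker set held no transcript known for endosperm alone.

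Seed coat was higher than both other parts in 3582 transcripts (14.0% of 25639) and lower than both in 2161 (8.43%). Taking each tissue in turn against the other parts, embryo was higher in 1486 (5.80%) and lower in 1454 (5.67%), and endosperm was higher in 3305 (12.9%) and lower in 2022 (7.89%). In the values as deposited the seed coat had the most calls in both directions, with the endosperm next. Large differences were mostly on the higher side. A difference of at least 2 was found for 1547 coat-higher (6.03%) and 451 coat-lower transcripts (1.76%), of at least 4 for 307 and 25, and of at least 6 for 67 and 0. The largest differences were 9.91 and 5.08. Near the threshold, 320 coat-higher transcripts lay between 1 and 1.1 and 349 transcripts lay just outside, between 0.9 and 1, and the corresponding numbers for coat-lower were 302 and 325.

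**Figure D1:**
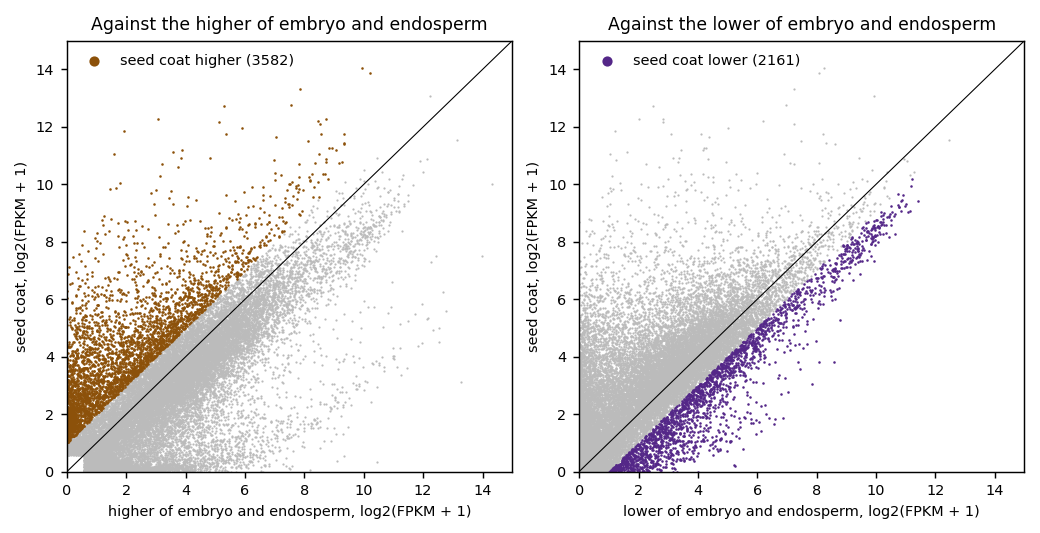
Each point is 1 of 25639 transcripts, with log2(FPKM + 1) in seed coat on the y axis against the higher (left) or the lower (right) of embryo and endosperm on the x axis, and a line of equality. The 3582 coat-higher transcripts reach up to 9.91 above the line, whereas the 2161 coat-lower transcripts stay within 5.08 of it.

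Coat-higher transcripts were abundant. They held 41.5% of the summed FPKM of seed coat, against 4.82% in embryo and 2.5% in endosperm. Their median was 14.8 FPKM in seed coat, 1.18 in embryo and 1.09 in endosperm. In 991 of them (27.7%) both embryo and endosperm were below 0.5 FPKM, and in 46 both were listed at 0. Coat-lower transcripts held 10.3% of the FPKM of seed coat, 38.5% of embryo and 38.7% of endosperm, with medians of 4.44, 24.1 and 23.8 FPKM. Seed coat itself was below 0.5 FPKM for 374 of these (17.3%). Embryo and endosperm lay within 1 of each other for 73.4% of the coat-higher and 77% of the coat-lower transcripts.

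The 10 largest coat-higher differences were between 7.56 and 9.91, and 9 of these transcripts had no description in the part of the annotation used here. Ca_TC32565 was at 3669 FPKM in seed coat, 2.82 in embryo and 1.31 in endosperm. Ca_TC07080 was at 2116 FPKM in seed coat, 1.05 in embryo and 1.98 in endosperm, and reached 13377 FPKM in root. Ca_TC29986 was at 4949 FPKM in seed coat, 6.1 in embryo and 7.37 in endosperm. In these 3 transcripts embryo and endosperm were below 10 FPKM beside a seed coat value of 2116 FPKM or more, and they were below 10 FPKM as well for Ca_TC13181, Ca_TC05769, Ca_TC26562, Ca_TC24472 and Ca_TC01976. The remaining ones were the chalcone synthase Ca_TC31878 and Ca_TC09571, whose endosperm value of 10.8 FPKM was the highest in embryo or endosperm among the 10. Among the most abundant transcripts of the seed coat, picked after their values were seen, Ca_TC14449 was at 16857 FPKM in seed coat, 301 in embryo and 988 in endosperm. Ca_TC22267 was at 10311 FPKM in seed coat, 227 in embryo and 149 in endosperm. Neither has a description in the part of the annotation used here.

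**Figure D2:**
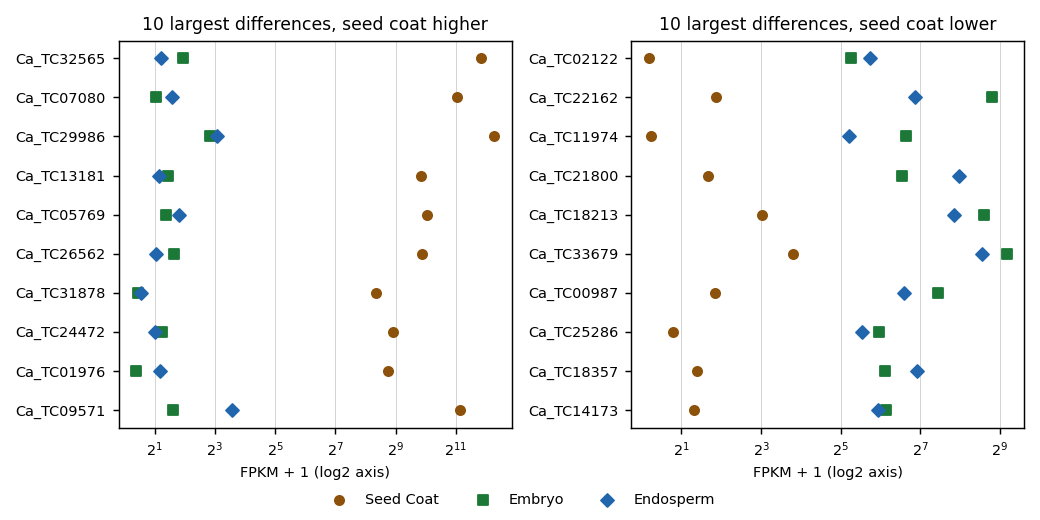
FPKM + 1 on a log2 axis for the 10 transcripts with the largest difference in each direction, with 1 point per tissue (circle, seed coat; square, embryo; diamond, endosperm). On the left seed coat lies at 327 FPKM or more with embryo and endosperm at 10.8 FPKM or less, and on the right seed coat lies at 13 FPKM or less with embryo and endosperm at 36.3 FPKM or more.

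Gene descriptions came from the study's annotation, with the name of a protein domain used where it gave none. They were at hand for 3499 transcripts, of which 1776 passed the expression threshold. Among these, 284 were coat-higher (16.0%) and 124 coat-lower (6.98%), and these shares are the background for the lists below. A list holds only members with a description, and their number passing is not the number of genes of a pathway in chickpea. The median difference between seed coat and the mean of embryo and endosperm was -0.12 over all 25639 transcripts and 0.03 over the described ones. A mark in the study's tables shows 498 of the described transcripts as not aligned to the chickpea genome. These had 78 coat-higher (15.7%) and 30 coat-lower members (6.02%), close to the 206 (16.1%) and 94 (7.36%) of the other 1278. Described transcripts that overlap at 1 locus share reads, so that their values are not independent.

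**Figure D3:**
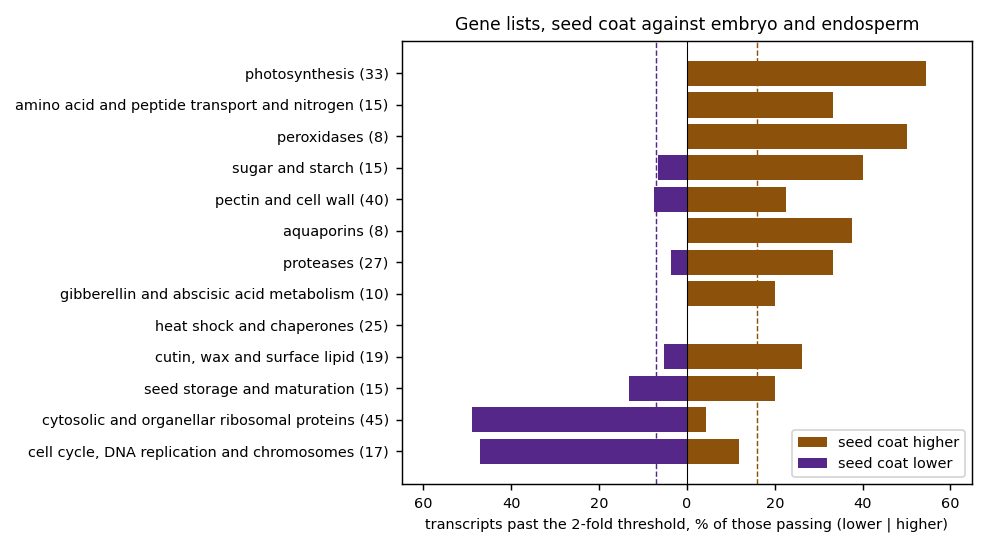
Share of transcripts past the 2-fold threshold in each gene list with at least 8 members passing (number in brackets), with coat-higher to the right and coat-lower to the left, in percent. Dashed lines are the shares over all described transcripts, 16.0% and 6.98%; photosynthesis, with 18 of 33 coat-higher, lies farthest to the right, and ribosomal proteins (22 of 45) and the cell cycle (8 of 17) farthest to the left.

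In flavonoid synthesis, 4 of the 13 members found passed, of which 3 were coat-higher and none was coat-lower. The median difference of the 4 from the mean of embryo and endosperm was 3.00. Ca_TC31878, Ca_TC32016 and Ca_TC31880 reached 0.5 FPKM in seed coat only, so that their direction was fixed by the expression threshold. The count is therefore no independent support. The 3 coat-higher members are the markers UGT78D2, Ca_TC31878 and Ca_TC32016 given above, and both chalcone synthases are among the transcripts not aligned to the genome. The genes differed in where else they were high: Ca_TC31878 reached 1263 FPKM in root hair, and UGT78D2 reached 151 FPKM in petal. Whole seeds at 10 dap had 11.3 FPKM of Ca_TC31878 and 2.52 FPKM of UGT78D2, below the seed coat and above embryo and endosperm for both.

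Lignin and phenylpropanoid genes had 2 coat-higher and 0 coat-lower members among 5 that passed. Cinnamoyl-CoA reductase CCR1 (Ca_TC01100), the first enzyme specific to monolignols, was at 98.1 FPKM in seed coat, 14.6 in embryo and 8.0 in endosperm. The CoA ligase 4CL2 (Ca_TC01072), which activates cinnamic acids, was at 2.5 FPKM in seed coat, 0.363 in embryo and 0.41 in endosperm. Both were highest in pod shell, at 235 and 181 FPKM. Cinnamyl-alcohol dehydrogenase (Ca_TC00213), picked after its values were seen, was not called, with 49.0 FPKM in seed coat and 33.1 in endosperm. Peroxidases, a family that includes the enzymes polymerising lignin, had 4 coat-higher members of 8 and none coat-lower. Ca_TC00157 was the most abundant at 238 FPKM in seed coat, 104 in embryo and 21.8 in endosperm. Ca_TC00137 and Ca_TC00138 overlap at 1 locus and were at 13.1 and 17.5 FPKM in seed coat, and both were highest in seeds at 30 dap.

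Of 40 pectin and cell wall transcripts that passed, 9 were coat-higher (22.5%) and 3 coat-lower (7.5%). Over all described transcripts these shares were 16.0% and 6.98%. The summed level of the 91 transcripts of the list, passing or not, was 712 FPKM in seed coat, 523 in embryo and 3730 in endosperm. Xyloglucan endotransglucosylase/hydrolase 32 (Ca_TC01535), of a family that cuts and rejoins xyloglucan chains, was at 75.7 FPKM in seed coat, 0.163 in embryo and 0.877 in endosperm. The seed coat value was its highest among the tissues with FPKM values. A pectin acetylesterase (Ca_TC24077) was at 30.4 FPKM in seed coat, 0.137 in embryo and 0.103 in endosperm, also highest in seed coat. Cellulose synthase CESA8 (Ca_TC00491), a subunit of the secondary wall complex in Arabidopsis, was at 19.6 FPKM in seed coat, 0.017 in embryo and 0.097 in endosperm. CESA8 was at only 0.26 FPKM in whole seeds at 10 dap and at 66.2 FPKM in pod shell, so that the whole seed was far below the seed coat. Coat-lower were a pectin methylesterase inhibitor (Ca_TC01041) and the overlapping DUF642 transcripts Ca_TC01187 and Ca_TC01188, the latter at 1.12 FPKM in seed coat, 32.6 in embryo and 9.26 in endosperm.

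Surface lipid transcripts numbered 19 with 5 coat-higher and 1 coat-lower. A member of the superfamily of lipid-transfer proteins, bifunctional inhibitors and 2S albumins (Ca_TC00154) was at 420 FPKM in seed coat, 2.92 in embryo and 14.9 in endosperm. The match of the receptor kinase crinkly4 (Ca_TC01390), known for epidermis differentiation in maize, was at 6.31 FPKM in seed coat, 1.9 in embryo and 2.29 in endosperm. The match of glycerol-3-phosphate acyltransferase 8 (Ca_TC35486), which makes cutin precursors in Arabidopsis, was coat-lower at 0.423 FPKM in seed coat, 4.4 in embryo and 2.64 in endosperm. The median difference of the list was -0.33, so the list as a whole was not higher in seed coat although single members were.

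Sugar and starch transcripts had 6 coat-higher and 1 coat-lower of 15. GPT2 (Ca_TC00698), a translocator that brings glucose 6-phosphate into plastids, was at 637 FPKM in seed coat, 10.8 in embryo and 1.03 in endosperm. Its next highest tissue among those with FPKM values was the whole seed at 10 dap, at 131 FPKM. The match of beta-amylase 3 (Ca_TC00622 and Ca_TC00623, overlapping at 1 locus) was at 28.5 and 9.18 FPKM in seed coat. A nodulin MtN3 family transcript (Ca_TC12845), of the family of SWEET sugar exporters, was at 6.46 FPKM in seed coat, 0 in embryo and 0.05 in endosperm, and reached 195 FPKM in root. The inositol symporter INT4 (Ca_TC00801) went the other way, at 5.83 FPKM in seed coat, 60.4 in embryo and 49.5 in endosperm. Starch synthase 3 (Ca_TC00721), picked after its values were seen, was at 15.3 FPKM in seed coat, 7.97 in embryo and 7.34 in endosperm and was not called.

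Amino acid, peptide and nitrogen transcripts had 5 coat-higher and 0 coat-lower of 15. Plastidic glutamine synthetase GS2, which assimilates ammonium, is covered by the overlapping transcripts Ca_TC00667 (Ca1, 4923157 to 4928406 on the kabuli reference genome) and Ca_TC00666. Ca_TC00667 was at 246 FPKM in seed coat, 3.82 in embryo and 2.32 in endosperm, and Ca_TC00666 was at 74.3 FPKM in seed coat, 2.02 in embryo and 3.19 in endosperm. Glutamate synthase 1 (Ca_TC34452), the next step of that route, was at 15.6 FPKM in seed coat, 1.08 in embryo and 4.31 in endosperm. The oligopeptide transporter OPT4 (Ca_TC00216) was at 7.45 FPKM in seed coat, 2.08 in embryo and 0.633 in endosperm. Both glutamine synthetase transcripts and glutamate synthase were highest in leaves or bracteole.

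Aquaporins had 3 coat-higher and 0 coat-lower of 8. Plasma membrane intrinsic protein 2 (Ca_TC01579), a water channel, was at 509 FPKM in seed coat, 34.2 in embryo and 21.1 in endosperm. NIP6;1 (Ca_TC01101), a boric acid channel in Arabidopsis, was at 17.6 FPKM in seed coat, 0.083 in embryo and 0.72 in endosperm. NIP1;2 (Ca_TC00515) was at 6.63 FPKM in seed coat, 1.51 in embryo and 0.627 in endosperm. None of the 3 was highest in seed coat among the tissues.

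Photosynthesis was the list with the largest number of coat-higher members, 18 of 33 that passed, with none coat-lower and 30 above the mean of embryo and endosperm. LHCB6 (Ca_TC00156), a light-harvesting protein of photosystem II, was at 953 FPKM in seed coat, 74.6 in embryo and 3.98 in endosperm. Rubisco activase (Ca_TC32665) was at 366 FPKM in seed coat, 28.1 in embryo and 1.22 in endosperm. A Rubisco small chain (Ca_TC33538) was at 54.7 FPKM in seed coat, 1.03 in embryo and 0.49 in endosperm. All 3 were highest in bracteole. Over the 92 transcripts of the list, passing or not, the summed level was 2400 FPKM in seed coat, 395 in embryo and 52.3 in endosperm, beside 3640 in pod shell and 3510 in mature leaf. Green tissue carried over from the pod would raise this list too, and its part in the result was not tested. Of the 18, 14 are among the transcripts not aligned to the genome, and the families are near-identical, so single members are uncertain.

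Among 27 protease transcripts, 9 were coat-higher and 1 coat-lower. Serine carboxypeptidase-like 48 (Ca_TC01538, Ca1, 11819632 to 11826358) was at 1685 FPKM in seed coat, 3.76 in embryo and 8.19 in endosperm. The overlapping Ca_TC01539, picked after its values were seen, was at 2323 FPKM in seed coat, 9.66 in embryo and 13.5 in endosperm. Whole seeds carried this locus as well, with Ca_TC01538 at 1418 FPKM at 5 dap and 1200 FPKM at 10 dap. A subtilisin-like endopeptidase (Ca_TC34728) was at 140 FPKM in seed coat, 0.137 in embryo and 0.53 in endosperm, and metacaspase 3 (Ca_TC00171) was at 3.19 FPKM in seed coat. The coat-lower member was an aspartyl protease (Ca_TC33359), at 0.08 FPKM in seed coat and 1.9 in embryo.

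Hormone transcripts were few. Of 10 for gibberellin and abscisic acid, 0 were coat-lower and 2 coat-higher (20%), near the 16.0% over all described transcripts. Of these 2, GA3 (Ca_TC01081), the ent-kaurene oxidase of early gibberellin synthesis, was at 28.8 FPKM in seed coat, 4.15 in embryo and 9.59 in endosperm. GA2OX4 (Ca_TC01027), which inactivates gibberellins, was at 2.11 FPKM in seed coat, 0.103 in embryo and 0.117 in endosperm. The seed coat value was its highest among the tissues with FPKM values. The ethylene-forming enzyme EFE (ACC oxidase), which belongs to no list, had Ca_TC00768 at 839 FPKM in seed coat, 6.19 in embryo and 0.95 in endosperm. The overlapping EFE transcript Ca_TC00769, picked after its values were seen, was at 102 FPKM in seed coat, 5.69 in embryo and 4.55 in endosperm, and reached 1357 FPKM in flower 4. Reads may be divided between the EFE transcripts, and both were higher in seed coat than in the other parts.

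Other described transcripts with large differences were a Pollen Ole e 1 family protein (Ca_TC02228) at 137 FPKM in seed coat, 0.033 in embryo and 0.057 in endosperm, whose next highest tissue was germinating seedling at 4.63 FPKM. A UDP-glycosyltransferase (Ca_TC02008) was at 305 FPKM in seed coat, 1.42 in embryo and 0.287 in endosperm. A heavy metal transport protein (Ca_TC00829) was at 249 FPKM in seed coat, 4.72 in embryo and 3.44 in endosperm. The first of these reached 0.5 FPKM in 11 of the other 28 tissues but stayed at or below 4.63 FPKM there, whereas Ca_TC00829 was highest in pedicel at 445 FPKM.

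Heat shock proteins and chaperones had 0 coat-higher and 0 coat-lower members of 25 that passed, with a median difference of 0.06. Lipoxygenases also had none in either direction, of 3. For seed storage and maturation, 3 of 15 were coat-higher (20%) and 2 coat-lower (13.3%), beside 16.0% and 6.98% over all described transcripts. The coat-higher ones were a fibrillin (Ca_TC00096), a group 2 late embryogenesis abundant protein (Ca_TC01238) and an AWPM-19-like protein (Ca_TC02853), all highest in leaf or root and none a storage protein. Coat-lower were ABA-responsive element binding protein 3 (Ca_TC14173, given with the TFs) and the cupin Ca_TC33544, from the family of globulin storage proteins, at 0.18 FPKM in seed coat, 5.06 in embryo and 8.03 in endosperm.

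Lower in seed coat were transcripts of the cell cycle, with 8 of 17 coat-lower and 2 coat-higher and a median difference of -1.17. Kinesin ATK1 (Ca_TC00255), a motor of the spindle, was at 1.14 FPKM in seed coat, 34.3 in embryo and 23.4 in endosperm. Cyclin A2;3 (Ca_TC01204) was at 5.52 FPKM in seed coat, 67.0 in embryo and 21.2 in endosperm. Cyclin B2;3 (Ca_TC33192) was at 0.603 FPKM in seed coat, 15 in embryo and 11.4 in endosperm. These act from the S phase to mitosis, as do further coat-lower members: the kinetochore protein NDC80 (Ca_TC00112) and, picked after their values were seen, separase (Ca_TC00111), an MCM helicase subunit (Ca_TC35765) and histone H2A 12 (Ca_TC01498). Histone H2A 12 was at 635 FPKM in seed coat, 2046 in embryo and 2603 in endosperm. The 2 coat-higher members have other roles. Cyclin D6;1 (Ca_TC01771), of the G1 cyclins, was at 16.6 FPKM in seed coat, 1.68 in embryo and 0.36 in endosperm, and FIZZY-related 2 (Ca_TC02481), an activator of the anaphase-promoting complex tied to endoreduplication in Arabidopsis, was at 492 FPKM in seed coat, 229 in embryo and 105 in endosperm.

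Ribosomal proteins had 22 of 45 coat-lower and 2 coat-higher, with a median difference of -1.16. Over all 104 transcripts of the list the summed level was 5490 FPKM in seed coat, 15100 in embryo and 12600 in endosperm. Ribosomal protein L27e (Ca_TC00061) was at 178 FPKM in seed coat, 706 in embryo and 657 in endosperm. S13A (Ca_TC02495) was at 108 FPKM in seed coat, 375 in embryo and 451 in endosperm. The differences were moderate compared with the large coat-higher ones, and the coat-higher members were the overlapping transcripts Ca_TC01020 and Ca_TC01021 of RPS1, a plastid ribosomal protein, at 165 and 21.0 FPKM in seed coat. Ribosomal protein copies are near-identical, so that the value of a single one is uncertain.

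The 10 largest coat-lower differences were between 4.63 and 5.08. Ca_TC02122, not described in the part used here, was at 0.13 FPKM in seed coat, 37.3 in embryo and 52.8 in endosperm. A NAC alpha subunit (Ca_TC33679), a factor that binds nascent peptides on ribosomes, was at 13 FPKM in seed coat, 576 in embryo and 379 in endosperm. The Sec14p-like phosphatidylinositol transfer protein Ca_TC00987 was at 2.59 FPKM in seed coat, 175 in embryo and 95.2 in endosperm. Its overlapping partner Ca_TC00988 was at 10.8 FPKM in seed coat, 557 in embryo and 171 in endosperm, so that the locus (Ca1, from 7883954) was low in seed coat by both transcripts. Ca_TC22162 was at 2.66 FPKM in seed coat, 447 in embryo and 115 in endosperm, and its highest value in the other 28 tissues was 0.975 FPKM, in seeds at 30 dap.

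Transcription factors (TFs) were assigned to families for 349 transcripts, of which 230 passed, with 23 coat-higher (10.0%) and 46 coat-lower (20.0%). Most of these TF labels come from tables that the study chose by expression in these samples, so that the split is not independent of it. Over the 91 TFs that passed in the first part of the annotation table, which was not chosen by expression, 8 were coat-higher (8.79%) and 4 coat-lower (4.40%). The excess of coat-lower TFs was thus not seen in that part.

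Coat-higher TFs were led by a MADS transcript (Ca_TC06576) at 165 FPKM in seed coat, 0.533 in embryo and 2.66 in endosperm. WRKY40 (Ca_TC01092), a stress and abscisic acid response factor in Arabidopsis, was at 45.2 FPKM in seed coat, 0.24 in embryo and 0.187 in endosperm, and the overlapping Ca_TC01093 was at 12.4 FPKM in seed coat. SPL4 (Ca_TC00395), a promoter of flowering in Arabidopsis, was at 30.7 FPKM in seed coat, 0.02 in embryo and 0.123 in endosperm. MADS and SPL4 were highest in pod shell, at 295 and 126 FPKM, and WRKY40 in mature leaf. GL2 (Ca_TC01246), which acts in trichomes and in seed coat mucilage in Arabidopsis, was at 28.6 FPKM in seed coat, 0.19 in embryo and 0.477 in endosperm. A MYB (Ca_TC05548) was at 15.6 FPKM in seed coat, 0.057 in embryo and 0.25 in endosperm, and a Trihelix TF (Ca_TC13119) was at 29.3 FPKM in seed coat, 1.18 in embryo and 0.66 in endosperm. By family, 3 of 8 WRKY, 3 of 10 MYB and 3 of 8 zf-HD transcripts were coat-higher, with 0, 0 and 1 coat-lower. Their median differences from the mean of embryo and endosperm were 0.27, -0.64 and -2.05. The summed level was 77.6 FPKM in seed coat and 27.4 in endosperm for WRKY. It was 31.7 and 146 for MYB and 45.7 and 395 for zf-HD. MYB and zf-HD as families were thus not higher in seed coat. These family shares have the limit given above for the TF labels.

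Coat-lower TFs were led by an ARF, an auxin response factor (Ca_TC25286), at 0.74 FPKM in seed coat, 61.3 in embryo and 45.3 in endosperm. ABA-responsive element binding protein 3 (Ca_TC14173), a bZIP, was at 1.5 FPKM in seed coat, 69.7 in embryo and 60.7 in endosperm. It was at 3.09 FPKM or less in the other 28 tissues with FPKM values, which leave out seeds at 20 dap. A YABBY family transcript (Ca_TC01870), of a family known for polarity of lateral organs, was at 0.477 FPKM in seed coat, 76.4 in embryo and 21.6 in endosperm. It is a TF by its description but has no family label, so the TF counts leave it out. An HMG transcript (Ca_TC18001) was at 2.44 FPKM in seed coat, 131 in embryo and 60.7 in endosperm. By family, 9 of 14 CCAAT, 5 of 12 TPR and 3 of 9 bHLH transcripts were coat-lower, with 0, 1 and 2 coat-higher. Most TF labels come from the tables chosen by expression in these samples, so that family shares are not independent of it. HB, with 5 of 20 coat-lower, was near the 20.0% of all TFs, a share with the same limit. The CCAAT family here takes in histone-fold proteins, as histone H2A 12 is one of its 9.

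**Figure D4:**
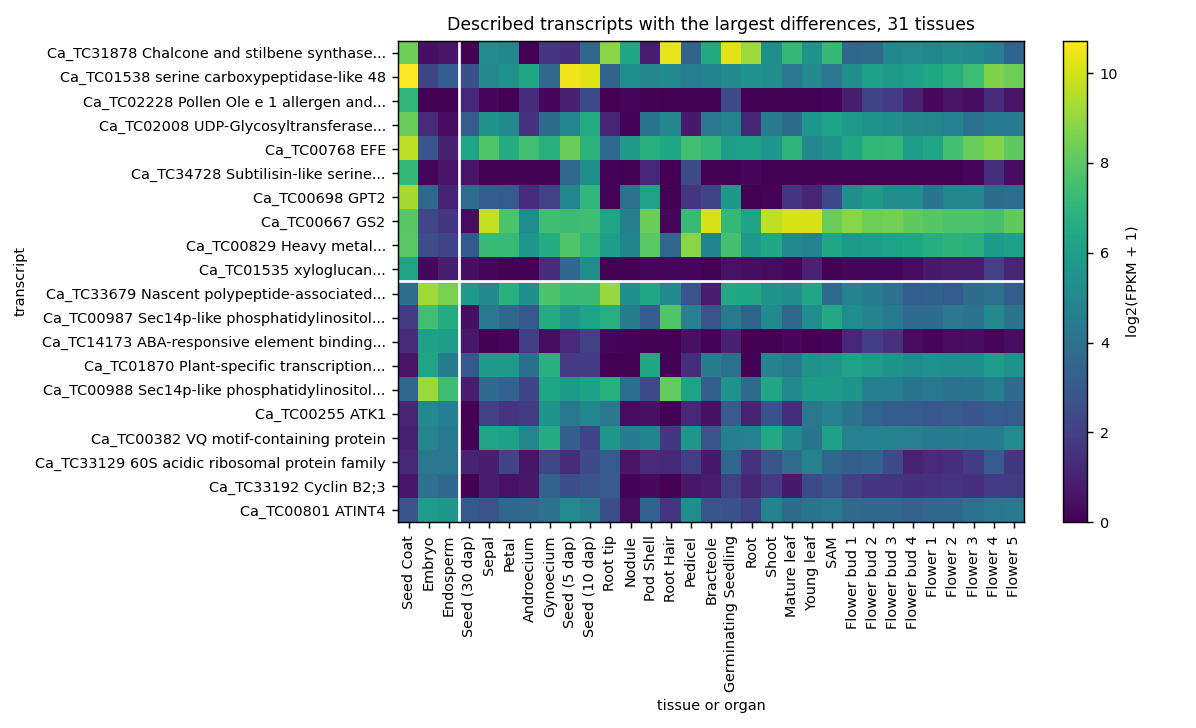
Heat map of log2(FPKM + 1) for the 10 described transcripts with the largest coat-higher difference (upper block) and the 10 with the largest coat-lower difference (lower block) in the 31 tissues with FPKM values, the 3 seed parts at the left. Ca_TC02228 is brightest in seed coat, with 4.63 FPKM or less in the other 28 tissues, Ca_TC00667 (GS2) is as bright or brighter in leaves, and Ca_TC14173 is brightest in embryo and endosperm, with 3.09 FPKM or less in the other 28 tissues.

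The rule did not use the other 28 tissues with FPKM values, and coat-higher transcripts were widely expressed in them. Seed coat was the tissue with the highest value for 375 of the 3582 (10.5%), followed by bracteole (268), root (253), pedicel (248) and mature leaf (240). Of the 2161 coat-lower transcripts, 1202 (55.6%) were highest in embryo (608) or endosperm (594), and gynoecium (244), root tip (112) and SAM (90) came next. This share pools embryo and endosperm, both above seed coat by the rule, so it cannot be set against the 10.5%. The tissue of the highest value was not counted over all expressed transcripts. Whether these tissue counts are particular to the called transcripts was therefore not tested. Under the same rule 571 of 1486 embryo-higher transcripts (38.4%) were highest in embryo and 1993 of 3305 endosperm-higher transcripts (60.3%) were highest in endosperm. Of the 3 parts, seed coat had the smallest share of its own higher transcripts peaking in it. Whole seeds contain seed coat, and with whole seeds and pod shell left out 605 coat-higher transcripts were highest in seed coat. The embryo and endosperm shares were not recomputed in that way.

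Compared with the median of all expressed transcripts in the same tissue, the median of coat-higher transcripts was 1.03 higher in bracteole, 1.02 in sepal, 0.92 in mature leaf and 0.89 in pod shell. It was lower in root hair (-0.55) and root tip (-0.53). For coat-lower transcripts the median was 1.17 above that of all transcripts in root tip, 0.86 in gynoecium and 0.76 in SAM, and it was below it in pod shell (-0.34) and sepal (-0.21) and close to it in root hair (-0.03).

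**Figure D5:**
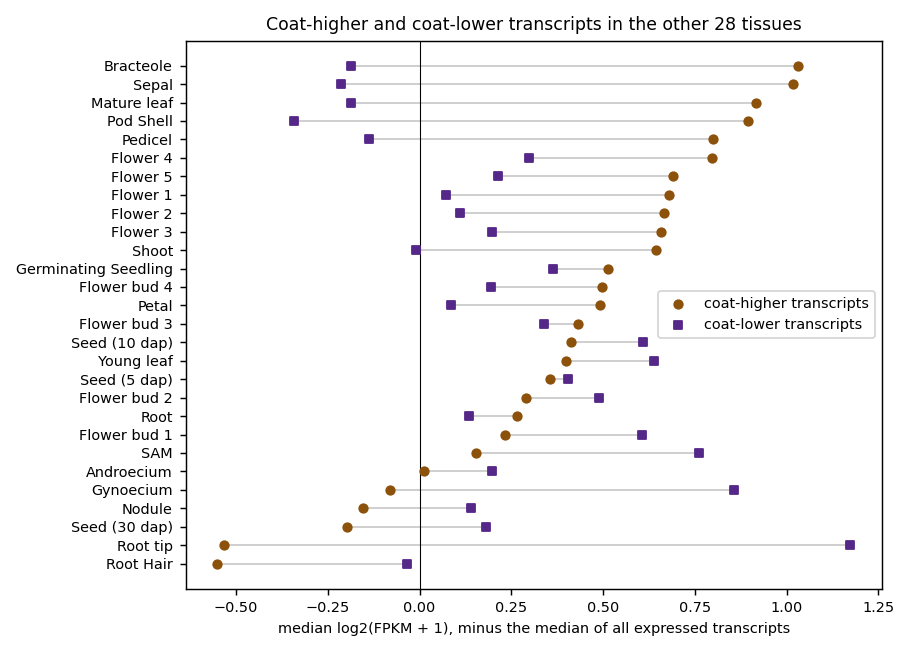
Median log2(FPKM + 1) of coat-higher (circles) and coat-lower (squares) transcripts in each of the other 28 tissues, minus the median of all 25639 transcripts there. The separation is widest in root tip, where coat-lower lies at 1.17 and coat-higher at -0.53, and circles lie farthest to the right in bracteole (1.03).

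Transcripts that set the seed coat apart from the whole atlas were fewer. In 108 coat-higher transcripts seed coat was at least 1 above each other tissue, and in 238 it was at least 1 above each of the 24 tissues that are not seeds, seed parts or pod shell. The largest such margin was 5.06 for Ca_TC32787, picked after its values were seen, at 4643 FPKM in seed coat against 138 in seeds at 10 dap. Ca_TC26562 followed, at 945 FPKM in seed coat and 28.3 in root hair, and Ca_TC02228, described above, came next. GPT2 (Ca_TC00698) was also among the 108, with a margin of 2.28.

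Whole seeds at 10 dap did not lie between their parts for many transcripts. Their value was above all 3 parts in 7680 of 25639 transcripts (30.0%), in 1010 coat-higher (28.2%) and in 139 coat-lower transcripts (6.43%). It was below all 3 parts in 3160 of all transcripts (12.3%), in 54 coat-higher (1.51%) and in 313 coat-lower transcripts (14.5%). The whole seed was closer to seed coat than to the mean of the other parts in 75.2% of coat-higher, 55.3% of coat-lower and 59.6% of all transcripts. Across the 25639 transcripts the log2 values of whole seeds at 10 dap correlated more with seed coat (r = 0.89) than with embryo (r = 0.80) or endosperm (r = 0.69). Seed coat and embryo had r = 0.76, seed coat and endosperm r = 0.66, and embryo and endosperm r = 0.78. These are across genes that are not independent and share transcript lengths and an assembly, and are descriptions.

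Transcript type was listed for 1808 transcripts, of which 1428 passed and 79 of those (5.53%, 95% Wilson interval 4.46 to 6.84) were lncRNAs. Among the coat-higher ones 15 of 230 were lncRNAs (6.52%, 3.99 to 10.5), and among the coat-lower ones 7 of 120 (5.83%, 2.85 to 11.6). The intervals cover counting error only and overlap, so no difference in lncRNA share was detectable with these numbers.

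Positions on the kabuli genome were given for the same 1808, of which 1807 lie on Ca1. There, 101 of 230 coat-higher transcripts (43.9%) had a coat-higher transcript as direct neighbour, in 59 pairs of which 24 overlapped, beside 330 of all 1428 placed transcripts that passed (23.1%). For coat-lower, it was 33 of 120 (27.5%), in 20 pairs of which 9 overlapped, beside 184 of the 1428 (12.9%) with a coat-lower neighbour. Overlapping transcripts share reads, and their part in these shares was not tested. GL2 (Ca_TC01246, 9783896 to 9792229 on Ca1) lay in a run of coat-higher transcripts, and those named here were picked after their values were seen. Next on the chromosome, after a gap of 3786 bp, was Ca_TC01247. It overlaps Ca_TC01245 but not GL2. After Ca_TC01248, which was not called, 3 more followed up to 9836620, and the bHLH transcript Ca_TC01250 had the larger difference among these, 4.21.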

How the data were processed

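The authors deposited FPKM per transcript and tissue, which they obtained by filtering the reads with NGS QC Toolkit, aligning them with bowtie2 to their own assembly, estimating abundance with RSEM and averaging the biological replicates. Whether the counting used strand is not given in the sources used here. The 20 dap seed was not used, because its values look like estimated counts. From the deposited FPKM, log2(FPKM + 1) was computed with Python 3.11.15, numpy 2.4.6 and pandas 2.3.3, with 0.5 FPKM in any of the 3 tissues as the expression threshold and a log2 difference of 1 as the call. Wilson intervals were computed with scipy 1.17.1. There was 1 averaged value per tissue, so no test was run, and the calling code was tested on simulated data. Gene names, TF families, types and positions came from the study's supplementary tables, which hold parts of longer lists. No sequence could be matched to the transcripts, so none is shown.

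The transcripts named are the 10 with the largest difference in each direction over all, described and TF transcripts, every marker, and up to 4 members per list and direction. Others were named after their values were seen and are marked so. The members and lists were chosen with earlier results of these data known. Alternatives were another pseudocount, threshold, fold, scaling and reference.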

Additional observations from a re-analysis of the deposited data

How the results depend on the processing

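No paired analysis was possible because each tissue has 1 averaged value and no replicate numbers. Leaving out replicates was not possible for the same reason. The counts of coat-higher and coat-lower transcripts (3582 and 2161, 62.4% higher among those called) did not move with an expression threshold of 0.1, of 1 or with none, since a call needs at least 1 FPKM by construction. Scaling to a common sum gave 3892 and 1841 (67.9% higher), a median-ratio scaling 3632 and 2058 (63.8%), and quantile normalization 3301 and 2393 (58%). The median difference of seed coat from the mean of the other parts over all transcripts was -0.12 as deposited and -0.01, -0.08 and -0.19 under these scalings. Leaving aside the neighbours of GL2, which were not part of this check, no called transcript named here reversed under any scaling, pseudocount or reference. Among the named transcripts that were not called, 7 moved by at least 1 with a pseudocount of 0.1.

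Under a pseudocount of 0.1, coat-higher was 4630 and coat-lower 3444, and 8 members of the amino acid list were coat-higher. Against the mean of embryo and endosperm, 5073 transcripts were coat-higher and 4569 coat-lower, pectin and wall had 17 and amino acid 8 coat-higher members, and 2633 coat-lower transcripts were highest in embryo or endosperm. With quantile normalization, 14 ribosomal members were coat-lower. With a difference of at least 2, the counts were 1547 and 451, and coat-higher members numbered 2 for surface lipid, 4 for pectin and wall, 2 for amino acid, 7 for photosynthesis and 3 for proteases, with 2 coat-lower for the cell cycle and 2 for ribosomal proteins. At that fold 215 coat-higher transcripts were highest in seed coat, and 266 coat-lower ones in embryo or endosperm. Without whole seeds and pod shell, 605 coat-higher transcripts were highest in seed coat.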

Other observations

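The transcripts given here were picked after their values were seen, except SWEET15, and they show levels that differed between embryo and endosperm. Seed coat and endosperm were both above embryo for SWEET15 (values above) and for Ca_TC25639, at 412 FPKM in seed coat, 5.23 in embryo and 260 in endosperm. A subtilase (Ca_TC00531) was at 21.3 FPKM in seed coat, 2.62 in embryo and 21.0 in endosperm. All 3 were highest in seed coat among the 31 tissues with FPKM values. Seed coat was above embryo and embryo above endosperm for photosystem I subunit PSAF (Ca_TC00866), at 857 FPKM in seed coat, 217 in embryo and 8.27 in endosperm, and for Ca_TC19080, at 4992 FPKM in seed coat, 426 in embryo and 3.02 in endosperm, and both are coat-higher calls.

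Endosperm alone was high for expansin B2 (Ca_TC01252), a wall-loosening protein, at 3367 FPKM in endosperm, 43.6 in seed coat and 33.9 in embryo. Whole seeds at 10 dap had 53.6 FPKM of it. The gibberellin-inactivating GA2OX2 (Ca_TC00578) was at 26.3 FPKM in endosperm, 0.403 in seed coat and 0.75 in embryo, and the gibberellin-forming GA20OX2 (Ca_TC00095) was at 9.54 FPKM in endosperm, 0.17 in seed coat and 0.803 in embryo. The cupins Ca_TC26610, Ca_TC37279 and Ca_TC32070, from the family of storage globulins, were at 28.9, 24.5 and 41.7 FPKM in embryo and at 1.09 FPKM or less in seed coat and endosperm, and reached 3951, 1294 and 3104 FPKM in seeds at 30 dap.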
